A study of Mus musculus with 8 samples.

Results

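The Dlk1-Meg3 cluster is an imprinted domain on mouse chromosome 12, and it was examined here through 8 member genes named by symbol, Wdr25, Begain, Dlk1, Meg3, Rtl1, Rian, Mirg and Dio3, out of 46078 gene IDs in the tables and 1508 on chromosome 12. The members were listed by name, with no threshold on their values. Another 100 annotated genes lie between Wdr25 and Dio3, of which 69 are miRNA genes and 23 are snoRNA genes. RNA-seq was performed on female mouse embryonic fibroblasts (MEFs), connective tissue cells grown from embryos, labelled 129S1/SvImJ x CAST/EiJ. Their 129 X chromosome is 129Sv4/Jae, whereas strain differences between 129S1/SvImJ and CAST/EiJ were used to assign reads to alleles, which are called 129 and CAST here.

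There were 8 samples, 2 in each of 4 groups, and the deposited columns pool the 2 samples of a group, so a group has 1 column per allele and the spread between its samples cannot be computed. WT cells carry an intact Xist, the noncoding RNA that silences the inactive X chromosome (Xi). XiΔXist cells carry a deletion of Xist on the Xi, which is of 129 origin, whereas the active X is of CAST origin. The other two groups are XiΔXist cells, so both carry the same deletion, that were transduced with lentiviral vectors encoding a scrambled hairpin (XiΔXist shSCR, here shSCR) or with a vector against the transcription factor YY1 (XiΔXist shYY1, here shYY1). The methods list 2 hairpins against YY1, and which of them the sequenced cells carried is not stated. No passage or embryonic age is given. The study describes the WT and XiΔXist lines as clonal, so a difference between clones and an effect of the deletion cannot be told apart, and puromycin selection is common to both hairpin groups but not to the untreated ones. Which parent contributed which strain is not given in the sources used here for the autosomes.

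An imprinted gene is expressed only or mainly from the allele inherited from a particular parent. In this cluster the protein-coding genes Dlk1, Rtl1 and Dio3 are known to be expressed mainly from the paternal allele. The noncoding RNAs Meg3, Rian and Mirg are known to be transcribed in the same orientation from the maternal allele and to host many snoRNAs and miRNAs. An RNA antisense to Rtl1 belongs to the same set. Methylation at CpG sites of an intergenic control region and of the Meg3 promoter marks the paternal allele. Wdr25 and Begain flank the domain, and Dio3 lies at its far end.

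Pools held between 2393545 and 28329701 allelic reads, with shSCR and shYY1 at the low end. Levels are given as counts per 1000000 allelic reads (CPM). The limit used for a count of 0, 3 reads, was 0.123 CPM in WT and 0.106 CPM in XiΔXist, against 1.25 CPM in shSCR and 1.20 CPM in shYY1. The deletion and the knockdown were visible in their targets. Xist stood at 1456 CPM in WT and at 0.741 CPM in XiΔXist, and Yy1 at 99.0 CPM in shSCR and 36.7 CPM in shYY1, which was 2.70-fold lower (95% interval 2.11 to 3.47). All 10 fibroblast markers had reads in WT and XiΔXist, whereas Lum had none in either hairpin pool and Dcn had none in shSCR and 1 read in shYY1. Summed CPM of the 10 markers ranged from 3869 to 9045, and no list of markers of epithelial, endothelial, blood, muscle, fat or pluripotent cells exceeded a summed 7.59 CPM in any pool.

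The promoters of Dlk1 and Meg3 are shown because these genes are a coding and a noncoding member whose reads came from opposite alleles in WT. The letters are the 250 bases before the RefSeq start on the plus strand of GRCm38.p6, the assembly also called mm10, with each CG dinucleotide, the site of DNA methylation, in capitals. The Dlk1 stretch is chr12:109452573-109452822 and the Meg3 stretch is chr12:109540746-109540995.

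Dlk1: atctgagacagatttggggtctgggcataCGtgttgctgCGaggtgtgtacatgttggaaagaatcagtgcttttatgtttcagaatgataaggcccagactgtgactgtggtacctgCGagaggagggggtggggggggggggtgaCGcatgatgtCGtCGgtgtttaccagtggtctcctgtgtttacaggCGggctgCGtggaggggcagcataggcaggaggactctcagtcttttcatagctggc

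Meg3: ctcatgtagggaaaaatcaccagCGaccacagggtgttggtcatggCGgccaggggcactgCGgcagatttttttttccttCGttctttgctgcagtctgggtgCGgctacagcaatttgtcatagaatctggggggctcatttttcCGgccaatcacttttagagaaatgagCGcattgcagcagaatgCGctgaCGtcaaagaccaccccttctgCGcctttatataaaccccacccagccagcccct

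The Dlk1 stretch held 8 CG dinucleotides and the Meg3 stretch 10, and 57.0% and 62.2% of 32851 RefSeq promoters of the same length held fewer, against a median of 6. The Meg3 stretch had 1 match on either strand to CCGCCAT, a core of the YY1 motif, beginning 208 bases before the start, as did 2.21% of promoters at any place. It also held 1 match to the cAMP response element TGACGTCA, 57 bases before the start, found in 1.55% of promoters, and 2 overlapping matches on opposite strands to TATAAA, found in 12.4%. None of these 3 motifs occurred in the Dlk1 stretch. Promoters were matched for 6 of the 8 members, Wdr25 and Rtl1 being the others.

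The noncoding RNAs are known as the source of the miRNAs of the domain. RefSeq placed 58 hairpins and 113 mature miRNAs in the interval, 54 of the hairpins on the plus strand, the strand of Meg3, Rian and Mirg. There were 14 hairpins inside Mirg, and 7 inside Rtl1, 6 of them on the strand opposite to it. A total of 9 seeds, bases 2 to 8 of a mature miRNA, were shared by more than 1 mature miRNA. The seed is in capitals below for 3 such pairs and for miR-127-3p, which is encoded antisense to Rtl1 and is known to direct cleavage of its RNA. Mature miRNAs were not measured in these libraries.

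mmu-miR-127-3p: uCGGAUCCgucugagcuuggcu

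mmu-miR-379-5p: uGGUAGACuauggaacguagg

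mmu-miR-1193-5p: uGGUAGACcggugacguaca

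mmu-miR-379-3p: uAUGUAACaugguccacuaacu

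mmu-miR-411-3p: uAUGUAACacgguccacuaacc

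mmu-miR-453: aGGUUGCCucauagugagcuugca

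mmu-miR-496a-5p: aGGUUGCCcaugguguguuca

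To determine whether the cluster departs from its surroundings, its 129 shares, the percentage of allelic reads assigned to 129, were read against the rest of chromosome 12. With at least 10 reads, 424, 421, 372 and 377 other genes of the chromosome had a median 129 share of 47.6% in WT, 50.4% in XiΔXist, and 27.2% and 27.4% in the hairpin pools. Between 89.9% and 94.6% of them lay between 10% and 90%, so both strains were represented along the chromosome in every pool. Over autosomal genes within those bounds the medians were 54.9%, 52.0%, 54.5% and 54.6%, so the lower 129 share in the hairpin pools was seen on chromosome 12 and not over all autosomes. Other chromosomes differed too: the median of chromosome 19 was 100% in every pool and that of chromosome 14 was 0% in both hairpin pools. Mitochondrial reads, whose DNA is passed on by the mother, were 99.9% 129 in WT and XiΔXist and 99.99% 129 in the hairpin pools.

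The maternally expressed noncoding RNAs carried most of the reads of the cluster in WT and were nearly or wholly without reads in the other pools. In WT, Meg3, Rian and Mirg were read almost entirely from the 129 allele. All 3 were lower in XiΔXist, and none had a read in shSCR or shYY1. In these bulk samples, fewer cells expressing a gene and less RNA per cell cannot be told apart.

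Meg3, a long noncoding RNA (ENSMUSG00000021268, chr12:109541001-109571726, plus strand), had 161 reads from 129 and 0 from CAST in WT, or 6.62 CPM, and 0 reads from either allele in XiΔXist, shSCR and shYY1. Its 129 share in WT was 100% (Wilson 95% interval 97.7% to 100%). Taking 3 reads for the 0 from CAST gives a CAST share of 1.86%, within that interval. With 3 reads set for a count of 0, Meg3 was 62.5-fold lower in XiΔXist and 5.28-fold lower in shSCR than in WT. The latter value lay between 4.21 and 10.7 under other scalings. The exact 95% intervals of these 2 ratios began at 50.3 and 4.25. The smaller bound for shSCR follows from its lower depth. Intervals and limits here and elsewhere cover counting error only, since PCR copies are not independent molecules and pooled columns hide the variation between samples.

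Rian, the host RNA of a large array of C/D box snoRNAs (ENSMUSG00000097451, chr12:109603940-109661716, plus strand), had the most reads of the members in WT, which also depends on the length of a gene and its number of strain differences. It had 5892 reads from 129 and 12 from CAST in WT, or 243 CPM and a 129 share of 99.8% (99.6% to 99.9%). In XiΔXist it had 0 reads from 129 and 2 from CAST, or 0.0706 CPM, and in both hairpin pools it had no read. The ratio of WT to XiΔXist was 3440 (exact 95% interval 952 to 28413). Relative to shSCR, Rian was at least 194-fold higher in WT, a bound that lay between 154 and 393 under other scalings. These scalings do not correct for GC content, which is 35.8% in its longest transcript. Of genes between 25.6% and 40.0% GC, 64.3% were at least 2-fold lower in shSCR than in XiΔXist.

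Mirg, the host of the last group of miRNAs in the domain (ENSMUSG00000097391, chr12:109729764-109749460, plus strand), had 111 reads from 129 and 1 from CAST in WT, or 4.61 CPM and a 129 share of 99.1% (95.1% to 99.8%). XiΔXist retained 4 reads, all from 129, or 0.141 CPM, and the hairpin pools had none. WT was 32.6-fold higher than XiΔXist (12.4 to 122). Of these 3 RNAs, Mirg alone had 129 reads left in XiΔXist.

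**Figure D1:**
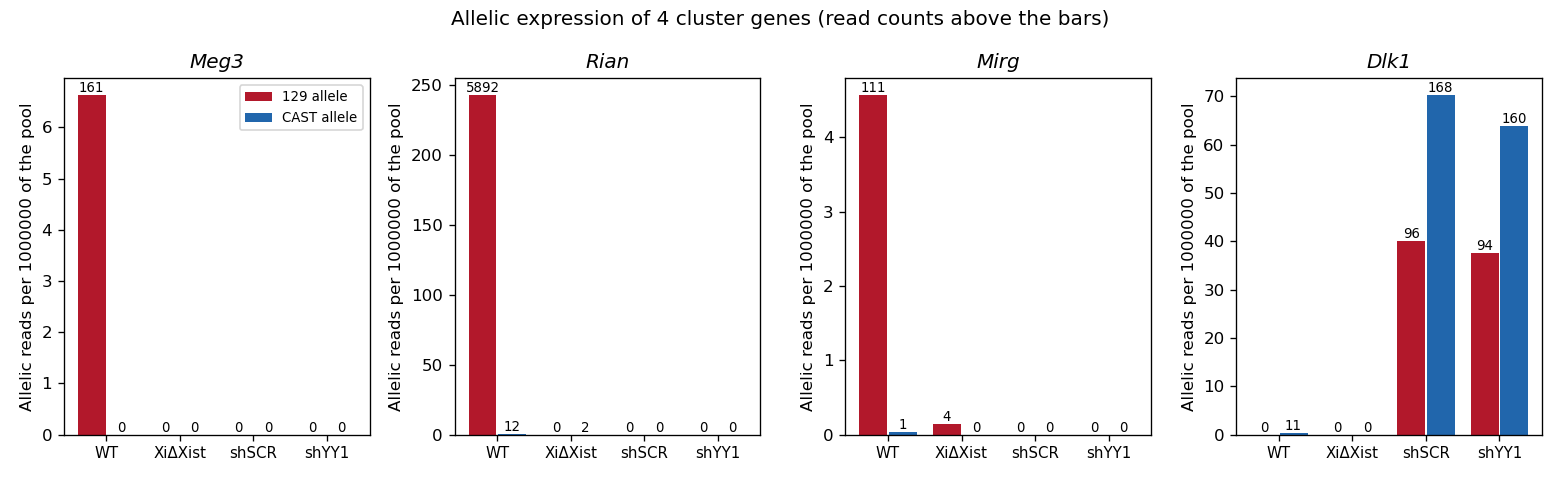
Allelic reads per 1000000 reads of the pool (y axis, linear, a scale of its own for each gene) for Meg3, Rian, Mirg and Dlk1 in the 4 pools (x axis), with red bars for the 129 allele and blue bars for the CAST allele. The read count of the pool stands above each bar and there are no error bars, since each group is 1 pool. Meg3, Rian and Mirg have tall 129 bars in WT alone, whereas Dlk1 has bars of both alleles in shSCR and shYY1.

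The smaller genes between them followed the same pattern. Of the 100 other annotated genes of the interval, 18 had a read in WT and none had one in XiΔXist, shSCR or shYY1, and 1555 of their reads in WT came from 129 and 1 from CAST. The unnamed RNA Gm37899 (chr12:109668869-109677585) had 964 reads, Gm26945 (chr12:109640341-109642351), which overlaps Rian, had 327, and B830012L14Rik (chr12:109695586-109702587) had 113, all from 129. Of 23 snoRNA genes 7 had reads, 137 from 129 and 1 from CAST, with 65 reads for Gm25854, 28 for Gm22205, 15 for Gm25224, 13 for Gm25856 and 11 for DQ267101. Of 69 miRNA genes 8 had reads, 14 in all, among them 3 for Mir453 and 2 each for Mir496a and Mir1193, whose mature sequences are given above.

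Summed over the 91 plus-strand genes from Meg3 to Mirg, WT had 7718 reads from 129 and 14 from CAST, which is 318 CPM and a 129 share of 99.8% (99.7% to 99.9%). XiΔXist had 6 such reads, or 0.212 CPM, and the hairpin pools had 0. Reads in genes that overlap may be counted for either gene or for none, and Rian overlaps 19 annotated genes, Mirg 15 and Meg3 5, which touches the split between genes more than this sum.

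Dlk1, an inhibitor of fat cell differentiation related to Notch ligands, showed another pattern. Dlk1 (ENSMUSG00000040856, chr12:109452823-109463336, plus strand, overlapping no other annotated gene) had 0 reads from 129 and 11 from CAST in WT, or 0.452 CPM, and no read from either allele in XiΔXist. In shSCR it had 96 reads from 129 and 168 from CAST, or 110 CPM, and in shYY1 94 and 160, or 101 CPM. Reads of Dlk1 therefore came from CAST alone in WT, where their number was small, and from both alleles in the hairpin pools.

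The 129 share of Dlk1 was 0% in WT, on 11 reads (Wilson 95% interval 0% to 25.9%). It was 36.4% in shSCR (30.8% to 42.3%) and 37.0% in shYY1 (31.3% to 43.1%). A share could not be given for XiΔXist. Between WT and shSCR, a comparison added after the values were seen, the shares differed by 36.4 points (Fisher's exact test, two-sided, p = 0.00959, adjusted p = 0.0423 by Benjamini-Hochberg over all genes). In that comparison 23.4% of 9629 genes were called. Of 341 other genes of chromosome 12, 59.8% were called, 199 with a lower and 5 with a higher 129 share in shSCR. As the comparison was picked on seen values, nothing is read from its p-value. Such a test compares 2 pools of reads and not the conditions.

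In level, Dlk1 was 1042-fold higher in shSCR than in XiΔXist with its 0 reads set to 3, and the exact 95% interval of the ratio began at 841. The first value depends on the scaling. It fell to 468 with TMM factors and 481 with RLE factors, both of which assume that most genes do not change. Dlk1 was 244-fold higher in shSCR than in WT (134 to 494), or 120-fold with TMM and 130-fold with RLE factors. The hairpin pools stood apart from untreated XiΔXist over most genes, and the ratio moved with the GC content of transcripts. The median log2 ratio of shSCR to XiΔXist over 10 classes of genes of equal size, set by the GC content of the longest transcript, ranged from -1.43 in the lowest class to 4.61 in the highest. Dlk1, at 53.6% GC, lay in class 9, where the median was 2.90 and 81.0% of genes were at least 2-fold higher in shSCR. With that median subtracted, Dlk1 stood at 7.12 on the log2 scale, with its 0 reads in XiΔXist set to 3. Among 3740 autosomal genes outside the cluster with at least 100 reads in shSCR, 11, or 0.294%, had no read in XiΔXist, and 11.4% were at least 30-fold higher in shSCR. These cutoffs were outside the planned rules and were met by Dlk1, so nothing about its rarity is read from them. The hairpin treatment, the lower depth and the shift with GC content came together in these pools and cannot be told apart. These pools also differed from XiΔXist in the 129 shares of chromosomes 12, where Dlk1 lies, and 14, which cannot be separated either. The part of GC content in the level of Dlk1 was not tested.

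**Figure D2:**
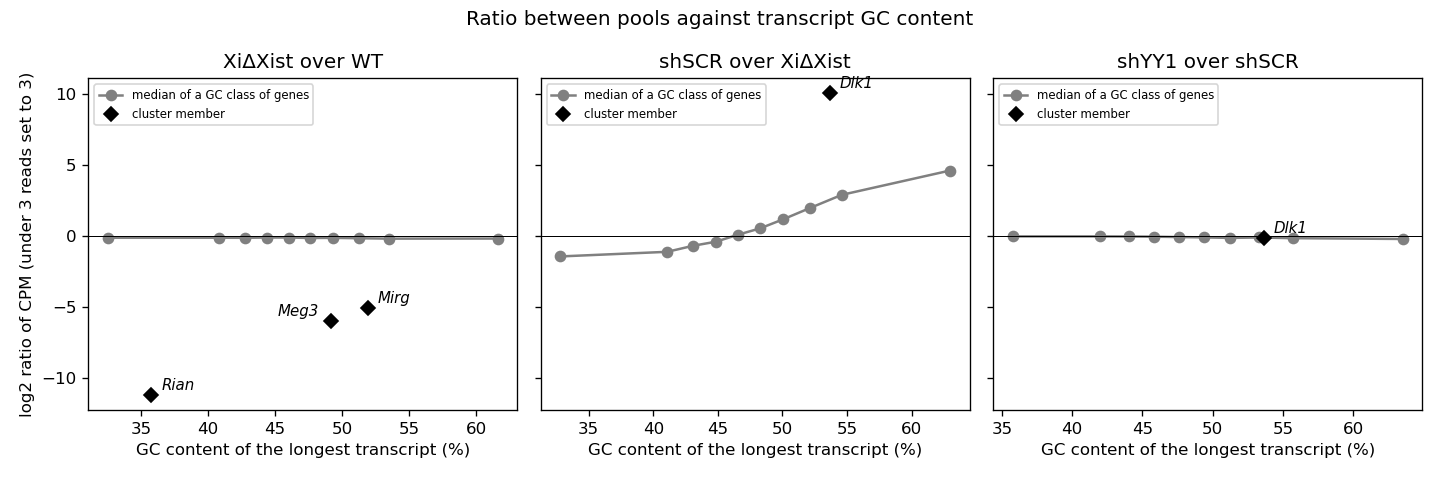
Log2 ratio of CPM between pools (y axis, with under 3 reads set to 3) against the GC content of the longest transcript (x axis, %) for the 3 comparisons. Grey points are medians of 10 equal classes of genes, drawn at the middle of their GC range, and black diamonds are cluster members with at least 50 reads in the 2 pools together. The grey line climbs from -1.43 to 4.61 for shSCR over XiΔXist and stays near 0 in the other 2 panels, where Rian, Meg3 and Mirg lie far below it in XiΔXist over WT.

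Between the hairpin pools Dlk1 hardly differed. Its level in shYY1 was 0.920 times that in shSCR (exact 95% interval 0.771 to 1.10), a log2 ratio of -0.12. Its 129 share was higher by 0.644 points in shYY1 (Fisher's exact test, adjusted p = 1). Yy1 itself differed 2.70-fold between these pools.

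The remaining coding members had few reads. Rtl1, a gene derived from a retrotransposon (ENSMUSG00000085925, chr12:109589193-109600330, minus strand), had 5 reads from 129 and 1 from CAST in WT, 0 and 8 in shSCR, and none in XiΔXist or shYY1. Its reads were mostly of 129 in WT and of CAST in shSCR. Rtl1 overlaps 7 miRNA genes, 6 on the other strand, and whether strand was used in counting is not stated, so reads of Rtl1 and of the RNA antisense to it cannot be told apart. Dio3, the deiodinase that inactivates thyroid hormone (ENSMUSG00000075707, chr12:110279068-110281097, plus strand), had 5 reads in XiΔXist, all from CAST, and none in the other pools. Begain, which encodes a protein of synapses (ENSMUSG00000040867, chr12:109032187-109068217, minus strand), had no read in any pool, which allows a level of up to 0.106 CPM in XiΔXist and 1.25 CPM in shSCR.

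Wdr25, at the left border (ENSMUSG00000040877, chr12:108893631-109028452, plus strand), encodes a WD repeat protein and was read from both alleles throughout. It had 15 reads from 129 and 10 from CAST in WT, 5 and 15 in XiΔXist, 3 and 10 in shSCR and 2 and 14 in shYY1. The 129 shares were 60%, 25%, 23.1% and 12.5%, with intervals as wide as 40.7% to 76.6% in WT and 11.2% to 46.9% in XiΔXist. The share in XiΔXist was 35.0 points below that in WT, which failed the correction (Fisher's exact test, p = 0.0337, adjusted p = 0.144). Its levels of 1.03, 0.706, 5.43 and 6.39 CPM rest on 13 to 25 reads, and it overlaps Wars on the opposite strand.

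To set these shares against the chromosome, each member with at least 10 reads was compared with the median 129 share of the other genes of chromosome 12 by a two-sided exact binomial test, adjusted over all autosomal genes. In WT, 4 of 5 members were called, against 62% of all genes tested and 54.0% of the other genes of chromosome 12. Since so many genes were called, the size of the departure says more than the count. Meg3 lay 52.4 points above the median (adjusted p = 4.2e-52), Rian 52.2 points above it, Mirg 51.5 points above it (adjusted p = 3.03e-34) and Dlk1 47.6 points below it (adjusted p = 0.00205). Wdr25 lay 12.4 points above it and was not called (adjusted p = 0.331). Of the other genes of the chromosome in WT, 9, or 2.12%, had a share of at least 90%, and 14, or 3.30%, had a share of at most 10%.

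In XiΔXist only Wdr25 had 10 reads, and it was called at 25.4 points below the median (adjusted p = 0.0413), where 62.6% of all genes were called. In shSCR 1 of 2 members was called, against 45.3% of all genes. This was Dlk1, at 9.20 points above the median of chromosome 12 (adjusted p = 0.00297), and 78.8% of the genes of the chromosome had a lower share. In shYY1 Dlk1 was again the 1 called of 2, with 45.9% of all genes called, at 9.61 points above the median (adjusted p = 0.00242). The departure of Dlk1 from the chromosome was thus toward CAST in WT and toward 129 in both hairpin pools, and it was smaller in the latter.

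**Figure D3:**
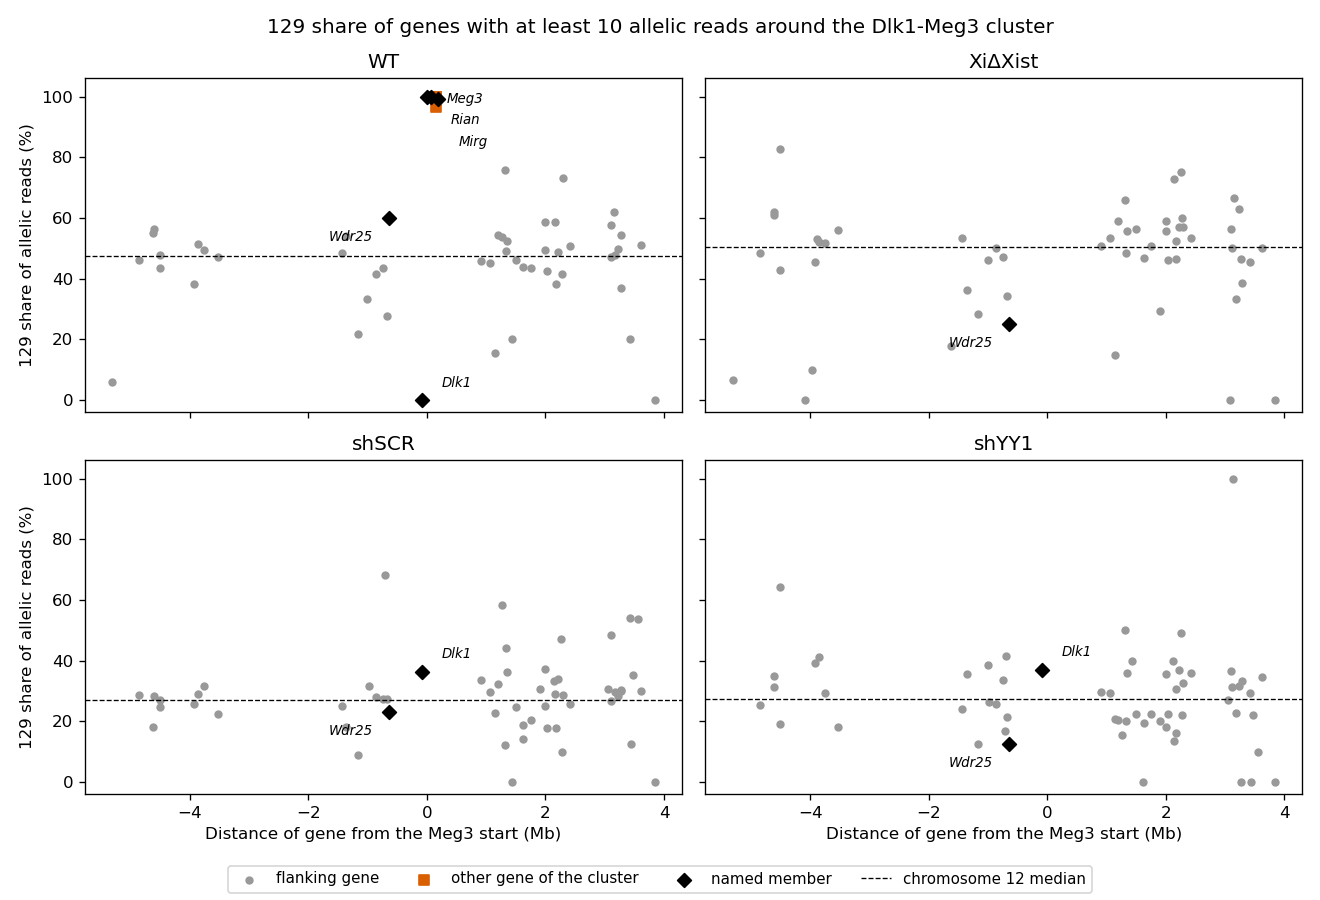
The 129 share of allelic reads (y axis, %) against the distance of a gene from the Meg3 start (x axis, Mb) in the 4 pools, for genes with at least 10 reads. Grey points are flanking genes, orange squares other genes of the cluster, black diamonds the named members, and the dashed line is the median of chromosome 12. In WT the noncoding RNAs lie at 96.4% to 100% and Dlk1 at 0%, and in the hairpin pools the dashed line falls to 27.2% and 27.4% with Dlk1 above it.

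Genes next to the cluster were read from both alleles in each pool. The nearest 5 genes on each side with at least 50 reads in every pool were Vrk1, Setd3, Eml1, Yy1 and Wars before the cluster and Ppp2r5c, Dync1h1, Hsp90aa1, Wdr20 and Tecpr2 after it. Their 129 shares ran from 15.3% for Hsp90aa1 to 54.3% for Wdr20 in WT and from 15.0% to 59.1% for the same 2 genes in XiΔXist. In shSCR they ran from 8.74% for Eml1 to 36.2% for Tecpr2, and in shYY1 from 12.4% to 35.8% for the same 2 genes. The share of Dlk1 in shSCR, 36.4%, lay next to that of Tecpr2, the highest of the 10 neighbours, and the intervals of both overlap.

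**Figure D4:**
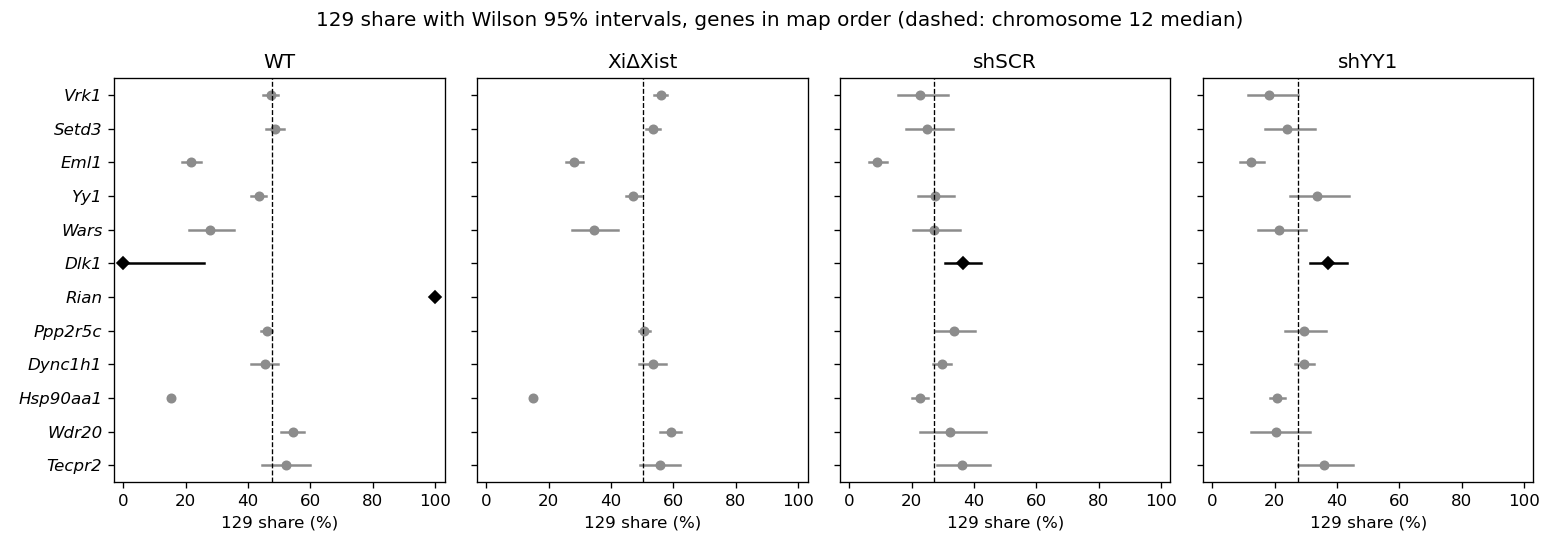
The 129 share (x axis, %) with Wilson 95% intervals (horizontal lines) of Dlk1, Rian and the nearest 5 well-read genes on either side, in map order from top to bottom, in each pool. Black diamonds are cluster members, shown where they had at least 10 reads, grey circles are neighbours, and the dashed line is the median of chromosome 12. Rian at 99.8% and Dlk1 at 0% stand outside the range of the neighbours in WT, whereas Dlk1 at 36.4% and 37.0% lies at the edge of it in shSCR and shYY1.

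By the rule on 129 shares, comparing pools with at least 10 reads in both, no member was called in the comparisons of the design. For WT against XiΔXist 0 of 1 member (Wdr25) was called, and 19.4% of all genes were. For XiΔXist against shSCR it was again 0 of 1, with 21.4% of all genes called, and on chromosome 12 65.9%, of which 222 of 226 had a lower 129 share in shSCR. For shSCR against shYY1 it was 0 of 2, and 1.19% of all genes were called. Meg3, Rian and Mirg had under 10 reads in at least 1 pool of every pair, and Dlk1 in XiΔXist, so these shares had no comparison.

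By the rule on levels, at least 2-fold with at least 50 reads in the 2 pools together, 3 of 3 members that could be compared were lower in XiΔXist than in WT, Meg3, Rian and Mirg, against 8.57% of all genes, and none was higher, against 4.2%. All 3 passed the read minimum through WT, the pool in which they were high, so that a difference was bound to follow. On chromosome 12 outside the cluster, 4.71% of 361 genes were lower and 2.77% higher. Of 7474 autosomal genes outside the cluster with at least 100 reads in WT, 57, or 0.763%, had at most 4 reads in XiΔXist. On chromosome 12 this was 1 gene of 298. These cutoffs were outside the planned rules and were met by Meg3, Rian and Mirg. Nothing about the rarity of the 3 members is read from these shares. For XiΔXist against shSCR the 1 member compared, Dlk1, was higher in shSCR, against 41.1% of all genes higher and 26.5% lower. With 0 reads in XiΔXist, Dlk1 passed the read minimum only through shSCR, so nothing is read from this count. For shSCR against shYY1 Dlk1 was neither, with 1.41% of all genes higher and 1.84% lower in shYY1.

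Genes with the most similar profiles over the 4 pools were sought outside the cluster among 11686 autosomal genes with at least 50 reads, by the distance of centred log2(CPM + 1) values. With only 4 points a small distance is easily reached. Nearest to Meg3 were Cd55, Dapk1, Grik2, Pgr and Fam49a, each with 5.18 to 8.35 CPM in WT and no read in any other pool. Cd55, Grik2 and Pgr were read almost only from 129 in WT, with 142, 133 and 203 reads, whereas Dapk1 had 7 reads from 129 and 182 from CAST and Fam49a had 38 and 88. Nearest to Dlk1 were Gm10073, Kmt2d, Smarca4, Col5a1 and Spen, which had 1.97 to 5.51 CPM in WT, 1.13 to 3.81 in XiΔXist and 208 to 515 in shSCR. Unlike Dlk1, all 5 had reads in XiΔXist.

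Genes of the pathways in which the members act were counted from fixed lists by the same 2-fold rule. Between XiΔXist and shSCR the share of all genes called higher ran from 5.18% in the lowest GC class to 92.4% in the highest. No list here or below was matched to all genes in GC content, so no raised or lowered pathway is read from that pair. Of 28 Notch pathway genes, 11 had enough reads for WT against XiΔXist. In XiΔXist 2 were lower and 2 higher, where 8.57% and 4.2% of all genes were. The lower ones were Hey2, a transcriptional repressor downstream of Notch, at 38.6 and 3.67 CPM, and Maml2, a coactivator, at 13.2 and 4.84 CPM. The higher ones were Maml3, a coactivator of the same family, at 0.617 and 2.51 CPM, and Rbpj. Rbpj, the DNA-binding factor of the pathway, stood at 146 and 326 CPM. The median log2 ratio was -0.22 beside -0.13 over all genes. For XiΔXist against shSCR 8 of 12 were higher and 1 lower (median 1.71 beside 0.41, with 41.1% of all genes higher and 26.5% lower), and for shSCR against shYY1 1 of 12 was lower (median -0.13 beside -0.08, with 1.84% of all genes lower). This was Jag1, a Notch ligand, at 18.8 and 7.19 CPM.

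Of 20 adipogenesis genes, 8 could be compared between WT and XiΔXist, of which 3 were lower and 1 higher in XiΔXist, with a median log2 ratio of -0.31 beside -0.13 over all genes, of which 8.57% were lower and 4.2% higher. The higher gene was Fabp4, a lipid carrier of fat cells, at 0.658 and 3.46 CPM. Gata2 and Gata3, transcription factors known to hold back fat cell differentiation, went from 6.46 to 1.62 CPM and from 7.65 to 0.106 CPM, the latter with 3 reads in XiΔXist (log2 ratio -6.17, 95% interval -8.47 to -4.61). Lpl, lipoprotein lipase, went from 162 to 45.2 CPM. For XiΔXist against shSCR 4 of 7 were higher and 1 lower (median 1.37 beside 0.41, with 41.1% of all genes higher and 26.5% lower), and for shSCR against shYY1 1 of 5 was lower (median -0.32 beside -0.08, with 1.84% of all genes lower).

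Of 16 genes of the thyroid hormone axis, in which Dio3 acts, 7 could be compared in each pair of pools. Between WT and XiΔXist 1 was lower and 1 higher in XiΔXist, where 8.57% and 4.2% of all genes were. The lower one was the amino acid and hormone transporter gene Slc7a5 at 12.2 and 5.89 CPM. The higher one was the transporter gene Slc16a10 at 6.83 and 15.1 CPM. Rxra and Rxrb, receptors that pair with the thyroid hormone receptor, stood at 2.76 and 1.62 CPM and at 0.247 and 0.318 CPM. Rxrb had only 6 and 9 reads in WT and XiΔXist, and stood at 16.3 and 9.58 CPM in shSCR and shYY1. Between XiΔXist and shSCR 4 of the 7 genes were higher and none lower, where 41.1% and 26.5% of all genes were. Between shSCR and shYY1 none passed 2-fold, where 1.84% of all genes were lower and 1.41% higher. Of 20 imprint control factors, 16 could be compared between WT and XiΔXist. Only 1, Dnmt3b, a DNA methyltransferase, was lower in XiΔXist (1.69 and 0.60 CPM). As 8.57% of all genes were lower, nothing is read from this count. Zfp445, a zinc finger protein that protects imprints, stood at 127 and 84.4 CPM, Ctcf, a chromatin insulator protein, at 6.25 and 4.20 CPM, and Eed, a Polycomb subunit, at 16.9 and 10.5 CPM. Between XiΔXist and shSCR 8 of 15 factors were higher and 2 lower (median 1.71 beside 0.41, with 41.1% of all genes higher and 26.5% lower). Between shSCR and shYY1 0 of 15 passed, where 1.84% of all genes were lower and 1.41% higher.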

How the data were processed

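RNA-seq of 8 female MEF samples was deposited as 8 tables of counts, 1 per group and allele. The methods state that the authors merged the replicates and aligned them with TopHat to a genome masked at strain differences. Alignments with a mapping quality under 30 were dropped, and SNPsplit then sorted reads by allele before exonic counting in featureCounts (version 1.6.3, per the labels and methods). The deposited counts are raw and not normalized, on mm10 (GRCm38). Annotation release and use of strand are not given in the sources used here. Reads without a strain difference do not enter, so CPM here is per 1000000 allelic reads.

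Positions and gene types came from GENCODE M21, which matched 45143 of 46078 IDs, and promoters and miRNAs from RefSeq (GRCm38.p6). No model across replicates was fitted. Shares were compared by two-sided Fisher's exact tests between pools with at least 10 reads in both, or by exact binomial tests against the median of the other genes of the same chromosome, with Benjamini-Hochberg adjustment over all genes (threshold 0.05). Shares carry Wilson 95% intervals and ratios of CPM exact binomial ones. Levels were called at 2-fold with at least 50 reads in the 2 pools together, and 3 reads stood in for a count of 0. The tests were run on simulated reads at these depths, drawn with counting error only, so their behaviour under a wider spread was not checked.

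The members and gene lists were chosen with earlier results of these data known. Genes named were all members, other genes of the interval with at least 10 reads in a pool, the nearest 5 genes on each side with at least 50 reads in every pool, Yy1 and Xist, the 4 genes of each list with the largest absolute log2 ratio between WT and XiΔXist or between shSCR and shYY1 among those with at least 50 reads in the pair, and the 5 nearest profiles to Meg3 and to Dlk1. Rbpj, Trim28, Snrpn and Lum, and among the miRNA genes Mir453, Mir496a and Mir1193, were named after their values were seen. Python 3.11.15 with numpy 2.4.6, pandas 2.3.3, scipy 1.17.1 and matplotlib 3.10.9, and edgeR 4.0.16 in R 4.3.3 for alternative scaling factors, were used.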

Additional observations from a re-analysis of the deposited data

How the results depend on the processing

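No paired analysis was possible because the 2 replicates of each group are pooled in the deposited columns, and for the same reason leaving out each replicate could not be run. Of the counts of cluster members under alternative settings, 42 stayed within 1.5 times the reported count and 4 did not. With at least 50 reads, 0 members in place of 1 stood apart from chromosome 12 in XiΔXist, since Wdr25 had 20 reads. With at least 200 reads, 1 member in place of 3 was past 2-fold between WT and XiΔXist, since only Rian had that many. With no filter and log2(CPM + 1), 3 members in place of 1 were past 2-fold between XiΔXist and shSCR and 1 in place of 0 between shSCR and shYY1, since genes with few reads then entered. Of single ratios, that of Wdr25 between shSCR and XiΔXist moved from 2.94 to 1.79 on the log2 scale with TMM factors and to 1.83 with RLE factors. TMM factors shifted the median of all genes by -1.15 for shSCR over XiΔXist, and RLE factors by -1.12, and for XiΔXist over WT by 0.13 and 0.21. Scaling to autosomal reads alone shifted the first of these by 0.29. The log2 ratio of Dlk1 between shYY1 and shSCR lay between -0.12 and -0.06 under all 4 scalings. Subtracting the median of genes of like GC content, an alternative chosen after the data were seen, left 3, 1 and 0 members past 2-fold. Scaling the CAST reads so that autosomal genes with a share of 10% to 90% had a median of 0.5 changed no count of members by over 1.5 times. Depth limits the hairpin pools most, where 3 reads equal 1.20 to 1.25 CPM, so levels of Mirg as low as in XiΔXist were not detectable there.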

Other observations

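Of 28 other imprinted genes outside the cluster, 17 had at least 50 reads in WT and XiΔXist together, and 6 were at least 2-fold lower and 2 at least 2-fold higher in XiΔXist, where 8.57% and 4.2% of all genes were, with a median log2 ratio of -0.64 beside -0.13 over all genes. Peg3, a zinc finger gene known to be paternally expressed, stood at 71.7 and 0.141 CPM in WT and XiΔXist and at 40.9 and 39.9 CPM in the hairpin pools, all from 129. On the same chromosome 7, the imprint factor genes Trim28 and Eed were also read almost only from 129 in WT. Snrpn, another imprinted gene there, had 31 reads in WT, all from CAST. No parent is therefore read from the allele of Peg3. Cdkn1c, a maternally expressed inhibitor of the cell cycle, stood at 3.70 CPM in WT and had no read in XiΔXist, which is at least 35.0-fold lower. Nnat stood at 8.23 and 0.494 CPM and Ppp1r9a at 3.21 and 0.247 CPM in WT and XiΔXist, both mostly from CAST in WT. In XiΔXist few reads were left, 5 from 129 and 9 from CAST for Nnat and 1 and 6 for Ppp1r9a. Between XiΔXist and shSCR 6 of 15 imprinted genes were higher and 3 lower, where 41.1% and 26.5% of all genes were, and between shSCR and shYY1 1 of 11 was lower and none higher, where 1.84% and 1.41% of all genes were.

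Among imprinted genes with at least 10 reads, 9 of 20 in WT had a 129 share of at least 90% and 5 a share of at most 10%. These were 4 and 4 of 14 in XiΔXist, 7 and 3 of 13 in shSCR and 6 and 3 of 12 in shYY1. No share over all autosomal genes is given beside these counts, so nothing is read from them. On a chromosome read from 1 strain alone such a share is no sign of imprinting, and chromosome 12 was read from both.

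Of 10 fibroblast markers, 9 had at least 50 reads in WT and XiΔXist together, and 2 were lower and 2 higher in XiΔXist, where 8.57% and 4.2% of all genes were. The shift of the hairpin pools with GC content was not taken out of the levels that follow. Col1a1, a collagen gene, stood at 21.9, 9.28, 791 and 1075 CPM in WT, XiΔXist, shSCR and shYY1, and Col3a1 at 63.8, 111, 29.7 and 70.3 CPM. Thy1, a surface protein, stood at 8.10, 23.6, 38.4 and 45.9 CPM. Dcn, a proteoglycan, stood at 25.1 and 77.4 CPM in WT and XiΔXist. Between XiΔXist and shSCR 3 of 9 markers were higher and 2 lower, where 41.1% and 26.5% of all genes were, and between shSCR and shYY1 1 of 8 was higher, where 1.41% of all genes were.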
